A study of Homo sapiens with 8 samples.

Results

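The genes described here belong to sterol synthesis and its control by SREBP (sterol regulatory element binding protein). The list held 7 genes, INSIG1, SREBF2, HMGCS1, IDI1, FDPS, FDFT1 and SQLE, and its members were the array features that the platform annotation assigns to one of them and that had values on 5 or more arrays. That gave 9 of the 10860 features with such values, and they stood for 5 genes: INSIG1 and SREBF2 with 2 features each, SQLE with 3, and IDI1 and FDPS with 1 each. No feature was annotated to HMGCS1 or FDFT1, so these genes were not analysed here, and 5073 of the 15246 features had no gene listed. All RNA came from L363, an established human plasma cell line. Cells had been given 12.5 µM MLN120B, a small-molecule inhibitor of the NF-κB kinase IKKβ, for 8 h (2 samples), 12 h (3 samples) or 24 h (3 samples) at 37 °C. Each sample was hybridised as Cy5-labelled cDNA on a 2-colour array of its own, against Cy3-labelled cDNA of L363 cells given the solvent DMSO. The cells are 1 line, the dyes were not exchanged on any array, and nothing in the labels states that the samples were separate cultures. The p-values therefore reflect the variation among these arrays, part or all of which may be technical.

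Cells make cholesterol from acetyl units through the mevalonate pathway, in which HMGCS1 and later IDI1 and FDPS build isoprenoid precursors, FDFT1 commits them to sterols and SQLE oxidises the product squalene. When membranes of the endoplasmic reticulum are poor in sterols, the SREBP-2 precursor encoded by SREBF2 travels to the Golgi, is cut and activates the genes of this pathway, SREBF2 itself among them. INSIG1 holds the precursor back when sterols are plentiful, and INSIG1 is in turn an SREBP target. Plasma cells carry a large endoplasmic reticulum for antibody secretion, the same organelle in which these proteins sit.

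The promoter sequences of INSIG1 and SREBF2 are shown because both genes are known SREBP targets and their features lay on opposite sides of 0 on most arrays. They are the 250 bases before the gene start in RefSeq on GRCh38.p14, at chr7:155297628-155297877 for INSIG1 and chr22:41832855-41833104 for SREBF2, both on the plus strand. Capitals mark matches, on either strand, to TCACNCCAC (like a sterol regulatory element), its shorter core CACNCCAC, CCAAT (the NF-Y box, ATTGG on the other strand) and CACGTG (an E-box).
INSIG1: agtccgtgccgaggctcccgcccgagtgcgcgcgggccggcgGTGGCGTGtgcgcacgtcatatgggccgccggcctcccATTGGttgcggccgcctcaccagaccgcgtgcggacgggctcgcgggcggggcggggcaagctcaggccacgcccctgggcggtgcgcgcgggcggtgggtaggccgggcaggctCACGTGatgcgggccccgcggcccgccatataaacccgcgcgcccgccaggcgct
SREBF2: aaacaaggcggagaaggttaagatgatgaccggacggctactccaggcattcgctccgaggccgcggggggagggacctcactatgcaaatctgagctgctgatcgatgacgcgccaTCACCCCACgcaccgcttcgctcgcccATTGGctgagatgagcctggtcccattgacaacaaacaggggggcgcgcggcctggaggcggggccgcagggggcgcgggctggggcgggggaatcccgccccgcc

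The SREBF2 window held the longer sterol element letters 133 to 125 bases before the start, and the core within them overlaps. An inverted NF-Y box followed 106 to 102 bases before the start. The INSIG1 window held only the core, on the minus strand at 208 to 201 bases, with an inverted NF-Y box at 170 to 166 bases and an E-box at 55 to 50 bases before the start. Of 35116 RefSeq windows of this length, 0.883% held the longer letters, 4.87% the core, 32.0% an NF-Y box and 6.34% the E-box. In 1 of the 3 windows listed for IDI1 the core also stood, on the minus strand. The FDPS window and a window of HMGCS1 had NF-Y boxes, but no window of these genes held either form of the sterol element. These are matches of letters, and the arrays did not measure binding to them. A window without the letters may still hold a sterol element of another sequence.

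Values are log2 ratios of the 2 channels, centred on the median of each array. They were read as MLN120B over DMSO. That direction is the likely one from the dyes in the labels, but no source used here states it, and turning the sign would reverse every direction below. The identifiers that the authors' array database gave the arrays fall into 3 groups of neighbouring numbers, referred to as database runs. Sample 3 at 12 h and at 24 h form run 1. Run 2 consists of sample 2 at 8 h together with sample 1 at both later times, and run 3 of sample 1 at 8 h together with sample 2 at both later times. Run 2 stood apart by its spread: the SD over all features was 1.00 to 1.42 on its arrays, against 0.35 and 0.58 in run 1 and 0.21 to 0.28 in run 3. The largest size of a deposited value was 10.4 to 12.4 on the arrays of run 2 and 5.80 and 9.23 in run 1, but 1.93 to 3.05 in run 3, where any log base would allow it. Base 2 is therefore assumed rather than known, least firmly for run 3, and another base on some arrays would change sizes and fitted means but neither signs nor percentiles within an array of the deposited values. Pearson correlations between arrays, across rows that are not independent, were 0.11 to 0.55 within a run and -0.20 to 0.094 between runs.

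The features of each gene were combined as a mean per array, and limma was fitted to the 5320 rows, 3220 of them named genes, that 2 or more arrays of every time had measured. INSIG1, SREBF2, IDI1 and SQLE entered that fit with values on all 8 arrays, and FDPS did not. The fit had no block and no weights, so its SEs, intervals and p-values treat the arrays as independent and equally variable. The estimated correlation within a run was 0.266, and array weights estimated in an alternative fit ran from 0.223 to 3.7. After Benjamini-Hochberg adjustment 0 of the 4 genes passed the threshold of 0.05 for the mean over the 3 times, at any time or between times, and 0.0% of all rows did in limma's test. Without adjustment 187 rows (3.52%) had a p under 0.05 for the mean, where 5% of the rows would be 266, and 1 of the 4 genes, INSIG1, was among them. At single times these shares were 2.22% of rows at 8 h, 3.23% at 12 h and 2.11% at 24 h, with 0 of the 4 genes at 8 h, SREBF2 at 12 h and INSIG1 at 24 h. For the differences they were 0.808% between 24 h and 8 h, 0.695% between 24 h and 12 h and 1.2% between 12 h and 8 h, with 0 of the 4 genes in each. What follows describes the values of these arrays. The arrays measured total RNA of lysed cells, so fewer cells that express a gene and less RNA per cell cannot be told apart.

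INSIG1, the protein that retains SREBP in the endoplasmic reticulum, had the highest fitted mean over the 3 times of the tested members. Averaged over its features it was at -0.035 and 0.74 at 8 h (samples 1 and 2), at 0.95, 0.11 and 0.42 at 12 h (samples 1, 2 and 3), and at 1.13, 0.87 and 0.63 at 24 h (samples 1, 2 and 3). It lay above 0 on 7 of 8 arrays, the exception being sample 1 at 8 h, and 5.99% of the rows with values on 8 arrays lay above 0 on 7 or more. All 3 arrays at 24 h were above 0, as they were for 11.3% of rows. The fitted mean over the 3 times was 0.58 ± 0.15 (SE, n = 8; 95% interval 0.23 to 0.92; limma adjusted p = 0.87), and 1.03% of all rows had a mean at least as high. The fitted ratio at 24 h was 0.88 ± 0.24 (SE, n = 3; 95% interval 0.32 to 1.43; limma adjusted p = 1.0), with 0.639% of rows at least as high.

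The ratio of INSIG1 was higher at 24 h than at 12 h within each database run, by 0.21 in run 1, 0.18 in run 2 and 0.76 in run 3, where the 24 h value rests on 1 of its 2 features. Such an order in 3 of 3 runs was seen in 9.88% of rows, and the fitted difference, 0.38 ± 0.35, did not pass (SE; limma adjusted p = 1.0). Averaged within runs INSIG1 was at 0.53 in run 1, 0.94 in run 2 and 0.31 in run 3. The run with the widely spread arrays thus gave the highest ratios, and without it the mean over the 3 times was 0.33. The part of that spread in the result was not tested. The 8 h value rested on 1 array: without sample 2 it was -0.035.

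The 2 INSIG1 features, both annotated to the same RefSeq transcript, averaged 0.73 (26242_1, 7 arrays) and 0.46 (16815_1, 8 arrays) and differed by time. Feature 26242_1 was at 0.026 and 0.88 at 8 h (samples 1 and 2), at 1.43, 0.26 and 0.93 at 12 h (samples 1, 2 and 3), and at 1.01 and 0.55 at 24 h (samples 1 and 3, with no value on sample 2). Feature 16815_1 was at -0.096 and 0.61 at 8 h, at 0.48, -0.040 and -0.080 at 12 h, and at 1.24, 0.87 and 0.70 at 24 h. The first was above 0 on 7 of 7 arrays, while the second was slightly below 0 on 3 of 8 and high on all arrays at 24 h. The difference between 24 h and 12 h was 0.82 for feature 16815_1 and -0.086 for feature 26242_1, so that only the one numbered 16815_1 was higher at the later time.

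**Figure D1:**
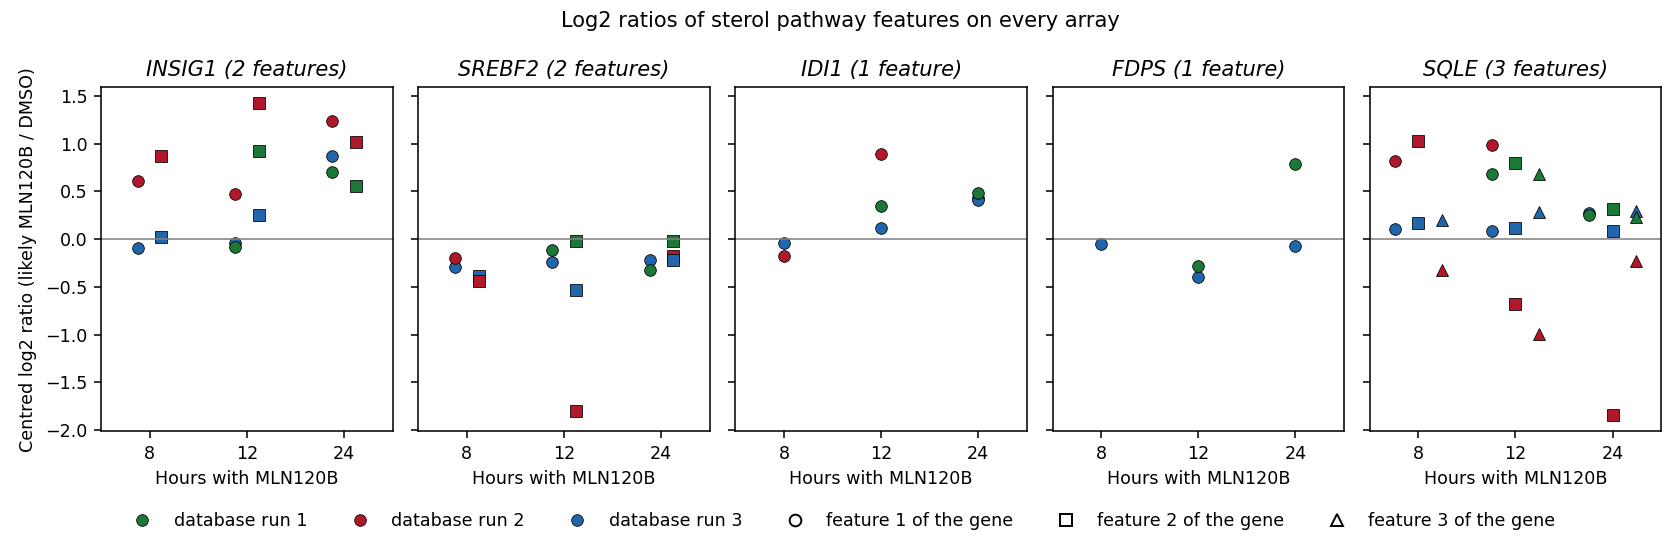
Each point is 1 feature on 1 array, with hours of MLN120B on the x axis and the centred log2 ratio on the y axis; colour gives the database run and shape the feature of a gene in order of its identifier. INSIG1 lies above 0 on the 24 h arrays, SREBF2 lies below 0 throughout, and 2 of the 3 SQLE features are below 0 on 2 or more arrays of run 2.

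SREBF2, which encodes the SREBP-2 precursor, lay below 0 on 8 of 8 arrays, which held for 1.29% of the rows with values on 8 arrays. Averaged over its features it was at -0.34 and -0.32 at 8 h (samples 1 and 2), at -1.80, -0.38 and -0.066 at 12 h (samples 1, 2 and 3), and at -0.17, -0.22 and -0.17 at 24 h (samples 1, 2 and 3). One array, sample 1 at 12 h, was far lower than the others, and its value rests on feature 29987_1 alone. The mean over the 3 times was -0.42 ± 0.19 (SE, n = 8; 95% interval -0.85 to 0.010; limma adjusted p = 0.87), and it was -0.25 without that array. At 12 h the fitted ratio was -0.75 ± 0.31 (SE, n = 3; limma adjusted p = 0.94), against -0.22 without the same array. By feature the fitted ratio at 12 h was -0.78 for 29987_1 and -0.17 for 24486_1, which has no value on that array.

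Both SREBF2 features had the same sign on every array with a value. Feature 24486_1 had 6 values, from -0.32 to -0.11, and lacked 2 of the arrays of run 2. Feature 29987_1 ranged from -1.80 to -0.014 over 8 arrays and was closest to 0 in run 1, at -0.018 and -0.014. By run the averages of SREBF2 were -0.12 (run 1), -0.77 (run 2) and -0.31 (run 3). In run 2 the values at 12 h and 24 h rest on feature 29987_1 alone. On the narrowly spread arrays of run 3 the ratios were small but low among the rows: SREBF2 was at the 2.6th, 3.7th and 16.0th percentile of all rows on the arrays of run 3 at 8 h, 12 h and 24 h.

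Among the enzymes of the mevalonate arm, IDI1, which isomerises isopentenyl diphosphate, was near 0 at 8 h and above 0 later. It was at -0.036 and -0.17 at 8 h (samples 1 and 2), at 0.90, 0.12 and 0.35 at 12 h (samples 1, 2 and 3), and at 0.44, 0.41 and 0.48 at 24 h (samples 1, 2 and 3). Both arrays at 8 h were below 0 and all 6 later arrays above 0, an order that 0.38% of the rows with values on 8 arrays shared. It was noticed in these values, so this share is a description. The fitted ratio at 24 h was 0.44 ± 0.21 (SE, n = 3; 95% interval -0.024 to 0.91; limma adjusted p = 1.0). The 3 arrays differed by far less than that interval, with an SD of 0.036. But the spread over all features differed between them, with SDs of 1.00, 0.28 and 0.35 on samples 1, 2 and 3. The near-equal ratios stood at unlike places, the 73.0th, 95.1st and 96.7th percentile of their arrays.

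The difference of IDI1 between 24 h and 8 h was 0.55 ± 0.33 (SE; 95% interval -0.19 to 1.29; limma adjusted p = 0.99). Within the runs that hold both times it was 0.61 in run 2 and 0.45 in run 3. Between 24 h and 12 h the runs differed in sign: the ratio was higher at 24 h by 0.14 in run 1 and 0.30 in run 3, and the difference in run 2 was -0.46. The gene has 1 feature, so no second one could be set beside it.

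FDPS, which makes farnesyl diphosphate, the branch point to sterols and prenyl groups, had values on 5 arrays, none of them of run 2. It was at -0.052 at 8 h (sample 1), at -0.40 and -0.28 at 12 h (samples 2 and 3), and at -0.074 and 0.79 at 24 h (samples 2 and 3). The 24 h array of run 1 alone was above 0, at the 99.6th percentile of that array's rows. With rows of 1 or more arrays at each time admitted, the fitted mean over the 3 times was -0.012 ± 0.21 (SE, n = 5; limma adjusted p = 1.0), and the difference between 24 h and 12 h was 0.70 ± 0.45 (SE; limma adjusted p = 1.0).

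SQLE, the squalene epoxidase of the committed sterol branch, lay above 0 on the arrays of runs 1 and 3. On run 2 its features differed in sign at 8 h and at 12 h. Averaged over its features it was at 0.16 and 0.51 at 8 h (samples 1 and 2), at -0.23, 0.16 and 0.72 at 12 h (samples 1, 2 and 3), and at -1.04, 0.22 and 0.27 at 24 h (samples 1, 2 and 3). The 2 values below 0 both belong to run 2. The value of -1.04 rests on features 36418_1 and 37548_1 alone, both below 0 on that array. The fitted mean over the 3 times was 0.12 ± 0.19 (SE, n = 8; 95% interval -0.30 to 0.55; limma adjusted p = 0.91), and without run 2 it was 0.28.

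The 3 SQLE features agreed in sign on all 5 arrays of runs 1 and 3, where they ranged from 0.089 to 0.80. On run 2 feature 29208_1 was at 0.82 and 0.99 (sample 2 at 8 h and sample 1 at 12 h) with no value on sample 1 at 24 h. Feature 36418_1 was at 1.03, -0.68 and -1.85 on the same 3 arrays, and feature 37548_1 at -0.33, -0.99 and -0.23. At 12 h in run 2 the features thus spanned from -0.99 to 0.99 on 1 array. The low value of SQLE at 24 h, -0.18 ± 0.30 (SE, n = 3; limma adjusted p = 1.0), was 0.24 without sample 1, the array of run 2 at that time.

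Since the arrays differ in spread, the place of each gene among the rows of its own array was also read. INSIG1 was at the 93.2nd, 99.9th and 98.7th percentile on samples 1, 2 and 3 at 24 h, at the 85.7th, 68.2nd and 84.4th on those at 12 h, and at the 38.3rd and 84.8th on samples 1 and 2 at 8 h. The gene's place was thus higher on the 3 arrays at 24 h than on the earlier ones, but the features did not share that order. Feature 16815_1 was at the 94.1st, 99.6th and 99.1st percentile on samples 1, 2 and 3 at 24 h and at most at the 77.4th before. Feature 26242_1 was at the 90.6th and 97.4th on samples 1 and 3 at 24 h, and at the 91.3rd and 99.1st on the same samples at 12 h. The place of INSIG1 on sample 2 at 24 h rests on feature 16815_1 alone. IDI1 was at the 38.0th and 40.3rd percentile on samples 1 and 2 at 8 h, and between the 69.2nd and the 96.7th on the later arrays. SREBF2 stayed under the middle on every array, between the 2.6th and the 43.1st percentile. SQLE ran from the 13.5th to the 97.0th, and its 2 places under the middle were in run 2.

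**Figure D2:**
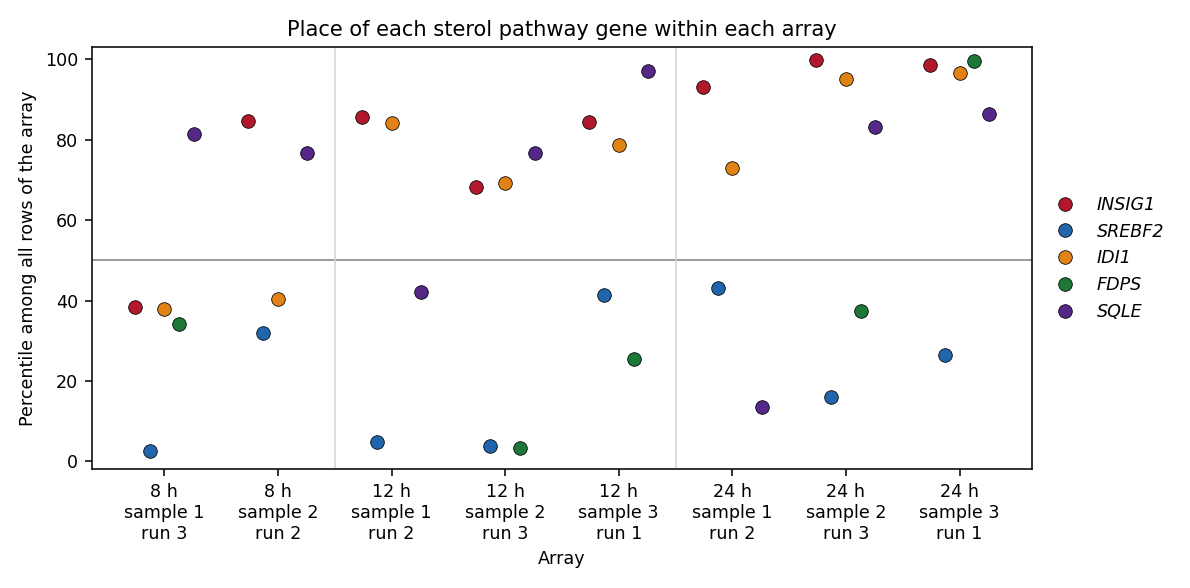
For each array (x axis, by time, sample and database run) the points give the percentile of a gene's log2 ratio among all rows with a value on that array (y axis). INSIG1 is at or above the 93.2nd percentile on the 3 arrays at 24 h, where sample 2 rests on 1 of its 2 features, and SREBF2 is at or below the 43.1st on all 8.

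**Figure D3:**
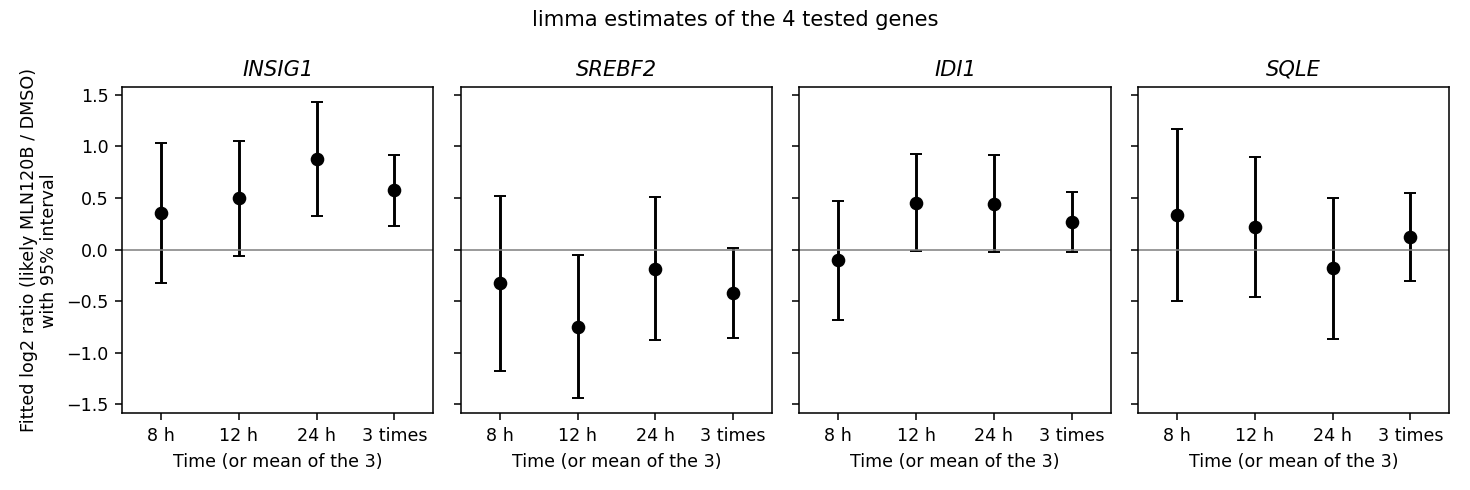
Points are limma's fitted log2 ratios of the 4 tested genes at each time and for the mean of the 3 times, with 95% intervals as bars. The intervals of INSIG1 at 24 h and for the mean, and of SREBF2 at 12 h, leave out 0, and none of the genes passed after adjustment over 5320 rows. The intervals treat the arrays as independent and equally variable.

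As a list, 3 of the 4 tested genes had a mean above 0, beside 47.8% of all rows, and their median was 0.19, beside -0.011 for all rows tested. By time, 2 of the 4 lay above 0 at 8 h (48.9% of rows), 3 at 12 h (49.5%) and 2 at 24 h (46.0%), with medians of 0.11, 0.34 and 0.13. The median of the 4 genes lay above 0 on 7 of 8 arrays, between -0.036 and 0.39, and its run averages were 0.38 (run 1), 0.21 (run 2) and 0.13 (run 3). In order of the mean over the 3 times the genes were INSIG1, IDI1, SQLE and SREBF2, and the 95% intervals of neighbours in that order overlapped.

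The patterns most like that of INSIG1 were looked for among 2242 other named genes with values on 8 arrays, by the root mean square difference of the log2 ratios over those arrays. SETD7, a lysine methyltransferase, was nearest at 0.29, then HEXD, a hexosaminidase, at 0.295, MIS12, a kinetochore protein, at 0.32, IGF2BP3, an RNA-binding protein, at 0.32 and SAMSN1, an adaptor protein, at 0.35, where the median over all these genes was 0.87. At 24 h they were at 0.47, 0.45, 0.47, 0.58 and 0.51, below the 0.88 of INSIG1. At 8 h they were at 0.32, 0.41, 0.32, 0.55 and 0.064.

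The rest of the pathway was sparsely measured. Of 19 other genes of mevalonate and sterol synthesis 4 were tested, and 0 passed over all rows at any time. All 4 had a mean above 0 (median 0.20), from LSS, the lanosterol synthase, at 0.055 ± 0.16 (SE, n = 7) to SC5D, a desaturase of late sterol synthesis, at 0.32 ± 0.21 (SE, n = 7). SC5D averaged 1.17 in run 2, against 0.044 in run 1 and 0.011 in run 3. CYP51A1, the lanosterol demethylase, chosen after its values were seen, was at -0.30 at 8 h, 0.62 at 12 h and 0.53 at 24 h and averaged 0.42, 0.37 and 0.30 in runs 1, 2 and 3. The list's median was 0.064 at 8 h, 0.073 at 12 h and 0.38 at 24 h, and its genes did not share a course. At these times LSS was at -0.19, 0.12 and 0.24, SC5D at 0.48, -0.032 and 0.52, and ERG28 at 0.32, 0.025 and 0.016.

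Of 8 genes of the SREBP processing machinery 2 were tested, both with a mean below 0: MBTPS1, the Golgi protease that first cuts SREBP, at -0.14 ± 0.22, and INSIG2, the second retention protein, at -0.064 ± 0.17 (SE, n = 8 each). At 24 h MBTPS1 was at -0.57 and INSIG2 at -0.30, and both were above 0 on average in runs 1 and 3 and below it in run 2. INSIG2 was thus at -0.30 where INSIG1 was at 0.88, a difference that was not tested. Of 10 genes of cholesterol uptake and transport 5 were tested and 4 had a mean below 0 (median -0.063), from LIPA, the lysosomal acid lipase, at -0.22 ± 0.18 to SCARB1, a lipoprotein receptor, at 0.11 ± 0.16 (SE, n = 8 each).

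Of 14 fatty acid genes known as SREBP targets 4 were tested, 2 above 0 and 2 below (median 0.032). SCD, the stearoyl-CoA desaturase, had the highest mean, 0.43 ± 0.16 (SE, n = 8; limma adjusted p = 0.87), lay above 0 on 7 of 8 arrays, and was at 0.13 at 8 h, 0.38 at 12 h and 0.77 at 24 h. Its run averages were 1.12 in run 1, 0.081 in run 2 and 0.41 in run 3. LPIN1, a phosphatidate phosphatase, was lowest at -0.13 ± 0.22 (SE, n = 8). Among 16 genes of cholesterol efflux, esterification and the LXR receptors 2 were tested, with 1 on each side of 0 (median -0.056), and OSBPL8, an oxysterol-binding protein, was at -0.18 ± 0.14 (SE, n = 8).

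Of 14 genes listed under prenylation and dolichol 2 were tested, and both belong to ubiquinone synthesis. COQ2, which prenylates the ubiquinone ring, was at 0.15 ± 0.14 and PDSS1, which makes the ubiquinone side chain, at 0.30 ± 0.42 (SE, n = 7 each), with a value of 3.16 on 1 array. In these 6 lists 0 genes passed over all rows, for the mean or at any time, beside 0.0% of all rows.

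**Figure D4:**
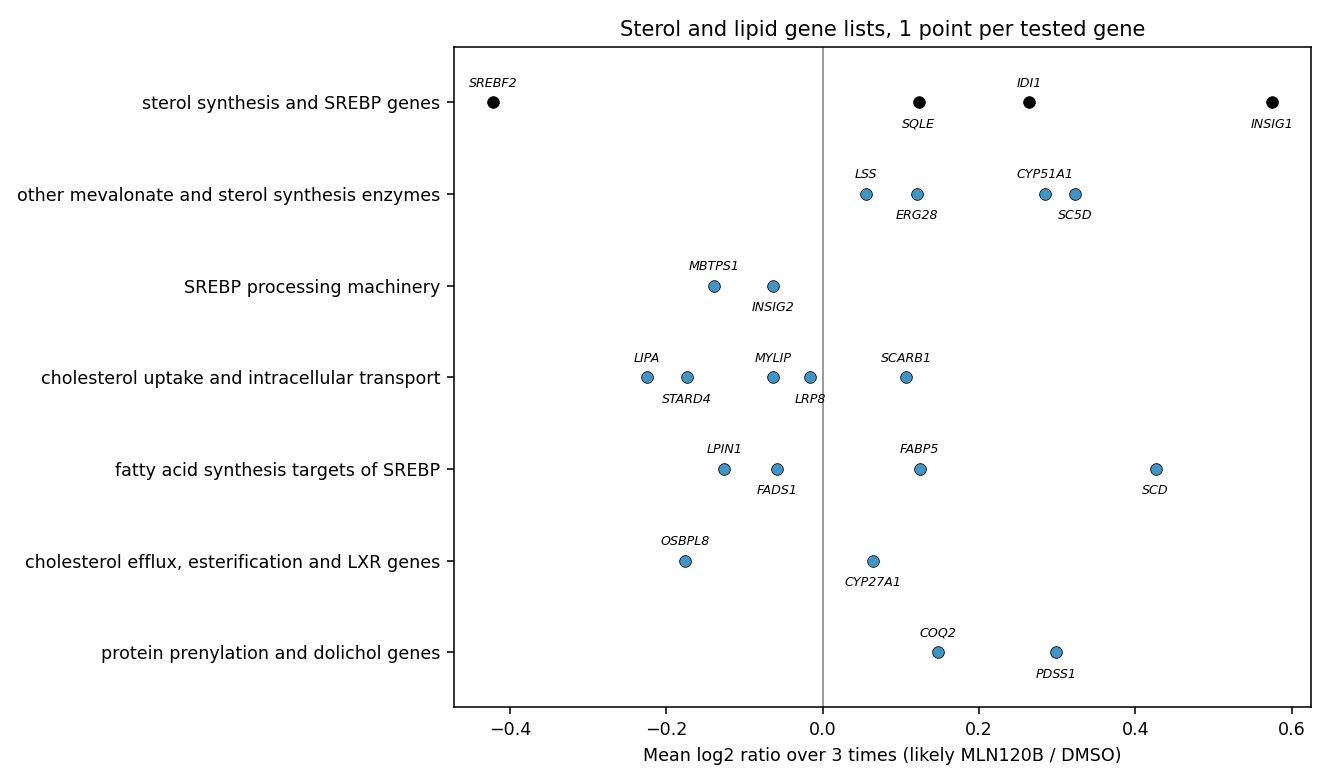
Each point is 1 tested gene, placed by its fitted mean log2 ratio over the 3 times (x axis) in the row of its list; black points are the sterol synthesis and SREBP genes of this description. INSIG1 at 0.58, SCD at 0.43 and SC5D at 0.32 are the highest points, and SREBF2 at -0.42 is the lowest. The points in the row of prenylation and dolichol genes are ubiquinone genes.

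Ratios do not show whether a marker is expressed, so the label of the cells could not be checked by level. Of 10 plasma cell markers 9 were tested, with 6 means above 0 and a median of 0.22. Beside the members' array medians, those of T cell markers (4 tested of 7) ran from -0.49 to 0.19, of myeloid markers (4 of 7) from -0.92 to 0.26, of erythroid and megakaryocyte markers (5 of 6) from -0.046 to 0.32 and of stroma markers (2 of 5) from -0.46 to 0.24. Their part in the members' values was not tested.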

How the data were processed

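The values are log2 ratios as the authors deposited them, a column for each 2-colour array, made from Cy3- and Cy5-labelled cDNA per the labels' protocols. How the authors corrected background, filtered spots and normalized is not given in the sources used here, nor is the log base. Base 2 was inferred because the largest size, 12.4, reached on 1 array of run 2, is beyond the reach of natural logs (11.1) and of log10 (4.82) for ratios of scanner intensities, and it is assumed for the other arrays. Intensities were not used, so the signal over background could not be judged. Between 6344 and 13007 features had a value on an array, and array medians, from -0.47 to 0.001, were subtracted.

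By the platform annotation 10169 features had 1 gene and 4 had several. Entrez identifiers gave current RefSeq symbols (GRCh38.p14) for 10128 features and accessions for 17, and 24 symbols were left as listed. Features with values on 5 or more arrays were averaged per gene. A mean for each time was fitted with limma 3.58.1 in R 4.3.3 (lmFit, eBayes, 2-sided) and tested against 0. The sources used here do not state whether the DMSO RNA differed between arrays. How far the ratios include the spread between DMSO cultures is therefore not known. The fit was tested on simulated data: for the mean over the 3 times, 73.0% of rows shifted by 1 and 99.0% of rows shifted by 2 on the log2 scale were called among 5320 rows. Of the rows not shifted, 6 were called. The simulated noise was independent between arrays, with the same spread on every array for a given row. The real arrays differ in spread and correlate within runs, so these shares are not the power of the fit on these data. Tables were made in Python 3.11.15 (pandas 2.3.3) and plots with matplotlib 3.10.9.

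Samples were grouped by treatment time from the labels. By sample number the 12 h and 24 h arrays form 3 pairs, and each pair shares a database run. Deviations from the time means correlated at 0.19, 0.19 and 0.31 for the 3 pairs. Number and run coincide there, so these correlations cannot show which of them pairs the arrays. At 8 h number and run do not coincide. There the correlations were -0.22 to -0.13 with later arrays of the same number and 0.12 to 0.20 with those of the same run. With 2 arrays at 8 h the deviations mirror each other (correlation -1.0), so these ranges are not separate evidence. Alternatives were other centring, normalization, averaging and filters, sample number or run as a block, array weights, robust variances, and arrays or runs left out (leaving out run 1 or run 3 was added after seeing the data). The members, lists and tests were chosen with earlier results of these data known. Named genes were all members, the highest and lowest of each other list with values on 7 or more arrays, and the 5 genes most like INSIG1. CYP51A1 and ERG28 fall outside this rule and were named after their values were seen.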

Additional observations from a re-analysis of the deposited data

Results flagged for a closer look

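IDI1 lay on opposite sides of 0 at different times. Both arrays at 8 h were below 0, and every array at 12 h and at 24 h was above 0. The fitted difference was 0.55 ± 0.33 between 24 h and 8 h and 0.56 ± 0.33 between 12 h and 8 h (SE), and neither passed (limma adjusted p = 0.99 for both, and 0.62 to 1.0 over the alternatives). Within runs the difference between 12 h and 8 h was 1.07 in run 2 and 0.15 in run 3. Groups of 2 and 3 arrays were too small to look for single arrays that stand apart.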

How the results depend on the processing

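No member gene passed under any alternative that was run. The smallest adjusted p was 0.13, for INSIG1 at 24 h with array weights, and 586 of 617 alternative values of single genes kept their sign. Many of these alternatives could not change the value, such as robust variances, or an array of another time left out. The count is therefore no measure of how stable the signs are. INSIG1 kept its sign throughout for the mean (0.33 to 0.77) and at 24 h (0.72 to 1.64), and SREBF2 for the mean (-0.55 to -0.23) and at each time. The cause of the changes below was not tested.

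Over all rows, the calls for the mean, 0 in the reported fit, were 2 with quantile normalization, 2 with 1 array or more at each time, 7 with the run as a fixed block and 8 without run 3. At 8 h they were 4 with 1 array or more at each time, 3 with the sample number as a replicate block and 17 without run 3, and at 24 h 2 with quantile normalization. Leaving out 1 array gave 0 to 35 calls for the mean and 0 to 84 at 8 h, the highest without sample 1 at 8 h, which leaves a lone array of run 2 assumed to vary like the other times. No other count changed, and 0 of the 4 genes was called. The median of the 4 genes at 8 h was -0.036 without run 2, and -0.036 to 0.17 with 1 array left out. At 12 h it was 0.16 as deposited and 0.099 over the features. At 24 h it was -0.029 as deposited, 0.40 after quantile normalization, 0.32 with arrays scaled to the same spread, 0.32 with array weights and 0.35 without run 2, and 0.11 to 0.35 with 1 array left out.

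The mean of SQLE was -0.0060 as deposited and -0.037 without run 1. Without run 1 it was -0.032 at 12 h, and feature 37548_1 alone gave -0.064 at 8 h and -0.0060 at 12 h. At 24 h SQLE was 0.12 after quantile normalization, 0.092 with scaled arrays, 0.20 with array weights, 0.24 without run 2, and 0.26 and 0.10 by features 29208_1 and 37548_1. INSIG1 at 8 h was -0.035 without run 2. Between 24 h and 8 h SREBF2 was at -0.035 with the sample number as a replicate block and with the run as a block, and at -0.023 by feature 24486_1, while SQLE was at 0.086 without run 2 and 0.16 by feature 37548_1. Between 24 h and 12 h INSIG1 was at -0.086 by feature 26242_1, SREBF2 at -0.094 by feature 24486_1, and SQLE at 0.11 by feature 37548_1. IDI1, at -0.0080 in the reported fit, was at 0.012 as deposited, 0.32 after quantile normalization, 0.26 with scaled arrays, 0.21 with array weights and 0.22 without run 2. With 1 array left out, reversals gave ranges of -0.035 to 0.74 for INSIG1 at 8 h, -0.032 to 0.44 and -0.41 to 0.24 for SQLE at 12 h and 24 h, and -0.18 to 0.21 for IDI1 and -0.63 to 0.024 for SQLE between 24 h and 12 h. No test of a member changed its call with the sample number as a block.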
